A study of Bos taurus with 56 samples.

Results

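The regions described here are stretches of the cattle (Bos taurus) genome that had an ATAC-seq peak in 8-cell embryos and in no other oocyte or embryo stage of the series. They were chosen by their peak calls alone, by joining all peaks that overlapped by at least 1 bp across 11 peak lists into 482097 regions, and keeping those with a peak in the 8-cell list and none in the other 10 lists. This gave 21881 of 482097 regions. Each consisted of a single 8-cell peak, so that they made up 21881 of the 59186 peaks of the 8-cell list (37.0%, 95% exact Clopper-Pearson interval 36.6% to 37.4%). They are called 8-cell-only peaks below, and the remaining 37305 peaks of that list are called shared 8-cell peaks.

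ATAC-seq uses a transposase that can cut and tag DNA where it is accessible, and reads from the tagged fragments accumulate over open chromatin, where they are called as peaks. Such stretches include promoters and enhancers, where transcription factors bind. In cattle the main wave of transcription from the embryo's own genome starts at about the 8-cell stage, when maternal RNA stored in the oocyte is being replaced. Accessible sites that appear and disappear around this stage can include regulatory elements as well as transposable elements that are transcribed for a short time.

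The 8-cell list was merged by the authors from 5 libraries of pooled embryos. The other 10 lists came from immature (GV, germinal vesicle) oocytes with 6 libraries, mature (MII, metaphase II) oocytes with 5, embryos of 2 cells and of 4 cells with 6 each, embryos of 16 cells with 5, morulae with 6 and in vivo derived morulae with 4, blastocysts with 3 and in vivo derived blastocysts with 4, and elongating embryos of day 14 with 6. The labels give no breed, and for groups without an in vivo label they do not say how the oocytes or embryos were produced. Each list holds only the chromosome, start and end of its peaks, with no height, score or read count, and 1 list per group gives no spread between replicates. No p-value was therefore computed, differences are given as values side by side, and the intervals cover counting error only. These intervals treat peaks as independent, although neighbouring 8-cell peaks were alike in membership (below), so they may be too narrow. A region without a peak in a list may be closed at that stage or may lie below the calling threshold, and the lists do not tell these apart.

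The share of 8-cell peaks found in no other list was of the same order as in most other lists. It was 37.0% in 8-cell embryos, against 38.7% in GV oocytes, 54.4% in MII oocytes, 37.6% in 2-cell embryos and 38.9% in 4-cell embryos. After the 8-cell stage the corresponding shares were 31.2% in 16-cell embryos, 31.2% in morulae, 26.7% in in vivo morulae, 34.7% in blastocysts, 45.3% in in vivo blastocysts and 81.6% in day 14 embryos. The lists range from 730 peaks in MII oocytes to 372509 in day 14 embryos, and the share depends on the length of all of them. By bases, 8-cell-only peaks covered 9.54 Mb of the 36.8 Mb of the 8-cell list (25.9%).

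Nearly all of the sorting was done by the later lists. Taking out peaks found in either oocyte list left 57863 8-cell peaks, and taking out those of the 2-cell and 4-cell lists left 56193. The 16-cell list then removed 24306, the morula lists 5691, the blastocyst lists 90 and the day 14 list 4225. Of the 8-cell peaks that were in no earlier list, 38.9% were thus 8-cell-only. The numbers removed depend on the order of the steps. Counted without an order, 26635 8-cell peaks (45.0%) met a 16-cell peak and 23639 (39.9%) a morula peak. An in vivo morula peak was met by 16202 (27.4%) and a day 14 peak by 22001 (37.2%). The 16-cell list was the sole other list for 5644 8-cell peaks, the day 14 list for 4225, the morula list for 1884 and the in vivo morula list for 584. The oocyte, 2-cell, 4-cell and blastocyst lists were each the sole other list for between 4 and 111 peaks. Membership therefore rested mainly on the absence of a 16-cell, morula or day 14 peak.

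**Figure D1:**
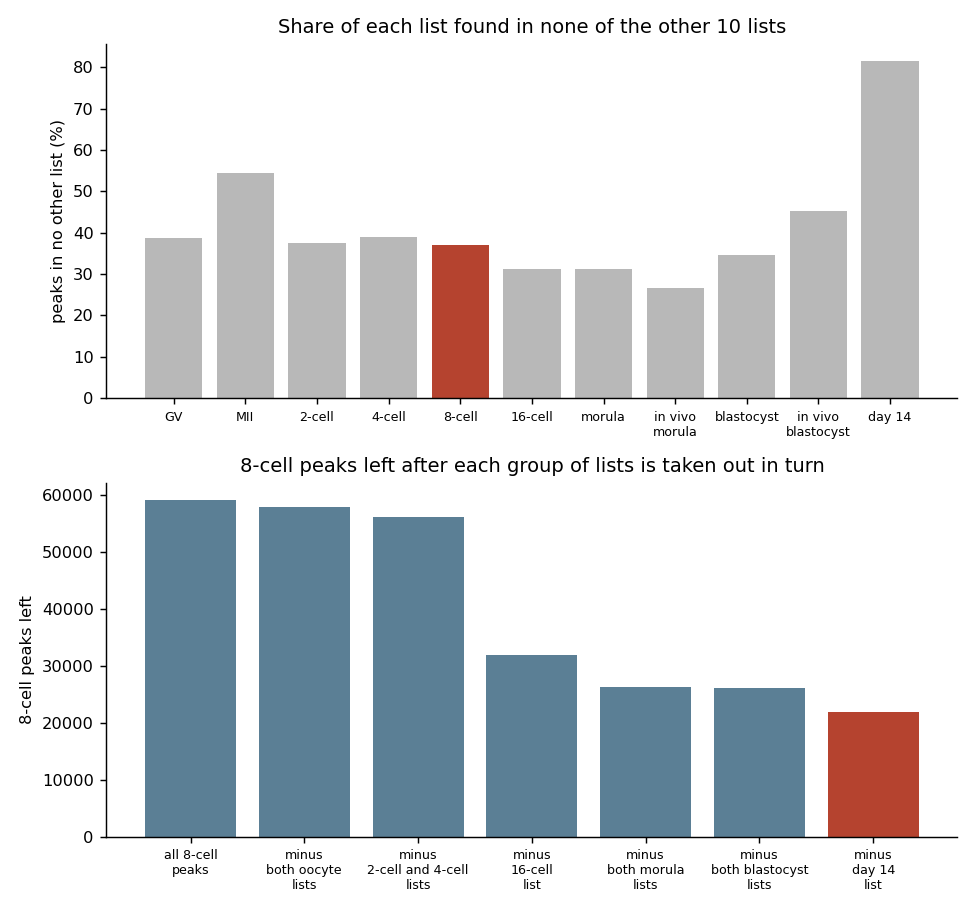
The upper bars give, for each of the 11 lists in developmental order, the percentage of its peaks found in none of the other 10 lists, with the 8-cell list in red at 37.0%. The lower bars give the number of 8-cell peaks left after the peaks of each further group of lists are taken out in turn, from 59186 down to 21881. In this order the largest single step is the 16-cell list, and the size of a step depends on the order.

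Some peaks lay very close to the boundary of the rule. Among 8-cell-only peaks, 13 touched a peak of another list without sharing a base, and 779 (3.56%) had a gap under 50 bp. Just inside the rule were chr2:22746731-22747091 and chr2:107021559-107021907, each of which touched a day 14 peak, and chr4:35109591-35109918, which touched a morula peak (build UMD3.1). Just outside were chr1:34443317-34443642, which shared 1 bp with a 16-cell peak, chr1:99774896-99775773, which shared 1 bp with a morula peak, and chr4:76257188-76257835, which shared 1 bp with a day 14 peak. Of the shared 8-cell peaks, 960 (2.57%) were overlapped over fewer than 50 bp in total, and 81.7% were overlapped over at least 50% of their width. Under a stricter rule, in which an overlap had to span 50% of each peak to count, 35588 8-cell peaks counted as 8-cell-only.

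8-cell-only peaks were narrow. Their median width was 373 bp (quartiles 303 and 493 bp), against 559 bp (372 and 905 bp) for shared 8-cell peaks. Peaks of at least 1 kb made up 2.75% of the 8-cell-only set, or 601 peaks, against 20.7% of the shared ones. The 8-cell-only share was lower in each wider decile of the 8-cell list, at 56.9% (interval 55.6% to 58.2%) among peaks of 217 to 281 bp and 5.21% (interval 4.66% to 5.81%) among those of 1159 bp or more. A wide peak has more bases with which to meet another peak, so part of this decline is built into the rule. Deciles were also made for 3 other lists, in which the share was likewise lower in each wider decile except for the first 2 deciles of the morula list, both at 54.5%. Their widest decile held 2.31% single-list peaks in 16-cell embryos, 1.43% in morulae and 0.438% in in vivo morulae. The lists have different width limits, the narrowest peak being 217 bp wide at the 8-cell stage, 193 bp at the 16-cell stage, 161 bp in morulae and 268 bp in morulae derived in vivo.

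Single-list peaks of neighbouring stages had similar widths. The median of 373 bp in the 8-cell-only set compares with 320 bp for the 23663 regions found in the 16-cell list alone, 373 bp for the 27704 found in the morula list alone and 393 bp for the 15205 found in the in vivo morula list alone. The 8-cell peaks of regions seen at the 8-cell and 16-cell stages and nowhere else were wider, with a median of 544 bp over 5036 peaks. Those of regions seen at the 8-cell stage and day 14 and nowhere else had a median of 382.5 bp over 3840 peaks, close to the 8-cell-only value. The more of the other lists held a peak, the wider it was, with medians of 373 bp for none, 438 bp for 1, 513 bp for 2, 571.5 bp for 3, 809 bp for 4 and 975 bp for 5 to 10.

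**Figure D2:**
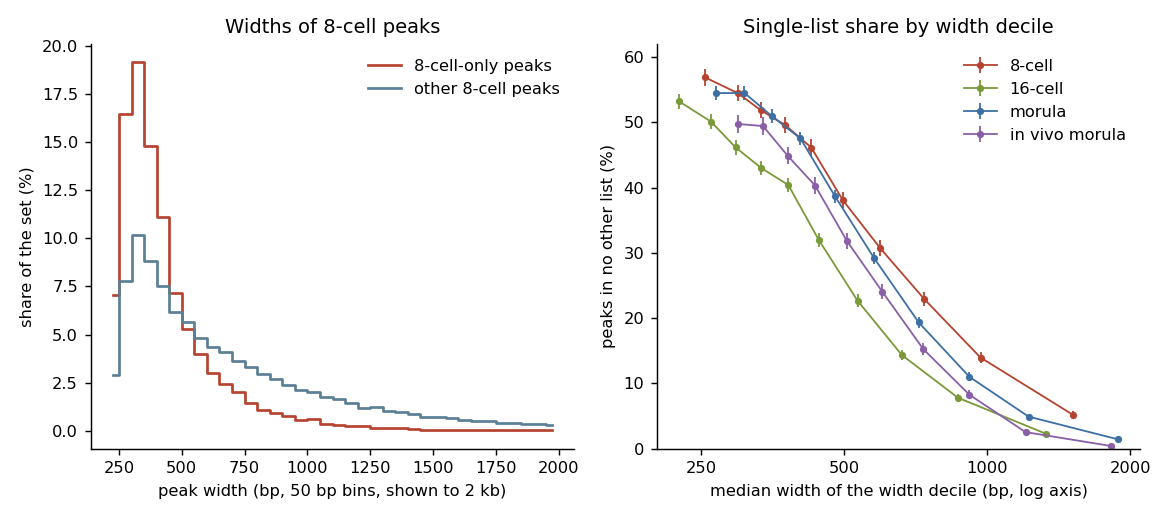
The left panel shows the widths of 8-cell-only peaks (red) and shared 8-cell peaks (blue) as the percentage of each set per 50 bp bin, up to 2 kb. The right panel shows the percentage of peaks found in no other list for the 10 width deciles of 4 lists, against the median width of the decile on a log axis, with 95% exact intervals as bars, and in the 8-cell list it drops from 56.9% to 5.21%.

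The 5 widest 8-cell-only peaks spanned 2455 to 2878 bp and lay 4435 to 11003 bp from the nearest peak of another list. Over all 8-cell-only peaks the median of this gap was 1872 bp and the upper quartile 5237 bp. The widest, chr18:45514434-45517311, was 7550 bp from the nearest peak of another list, a morula peak, and 346 bp from a second 8-cell-only peak. The peak chr8:80855392-80858253, of 2862 bp, lay in a crowd of 8-cell peaks, with 35 others centred within 50 kb, 20 of them 8-cell-only, and had its nearest 16-cell peak 6074 bp away. The peak chr1:94079165-94081820, of 2656 bp, had no 8-cell-only and 2 shared 8-cell peaks within 50 kb. Its next 8-cell peak was 32563 bp away and a day 14 peak 11003 bp away. Another wide peak on the same chromosome as the widest, chr18:17557588-17560165, had no 16-cell peak within 113856 bp and no morula peak within 121257 bp, while a day 14 peak was 4435 bp away. The peak chr6:77571349-77573803 had 7 other 8-cell peaks within 50 kb, 5 of them 8-cell-only, and 1 day 14 peak. Of these 5 peaks, 4 had an 8-cell-only peak as their nearest neighbour in the 8-cell list.

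Most 8-cell-only peaks (73.9%) had a peak of some other list within 5 kb without meeting it. The lists are dense, with 482097 regions over 2661 Mb. Gaps from random positions were not measured, so nearness beyond that density was not tested. The median gap to the nearest peak of any other list was 1872 bp, with quartiles of 591 and 5237 bp. Within 1 kb, 7717 of them (35.3%, interval 34.6% to 35.9%) had such a peak, within 10 kb 87.8%, and within 50 kb 99.6%. The gaps of the other single-list sets were alike in size, with medians of 1646 bp for 16-cell-only peaks, 1800 bp for morula-only peaks and 1897 bp for in vivo morula-only peaks. Width did not follow the gap, since the median was 367 bp for 8-cell-only peaks less than 250 bp from another list's peak and 372 bp for the 2678 peaks at 10 kb or more.

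The nearest peak of another list came from day 14 embryos in 46.2% of cases, from 16-cell embryos in 22.8%, from morulae in 18.02% and from in vivo morulae in 9.25%. These lists hold 60.7%, 12.4%, 14.5% and 9.29% of all peaks outside the 8-cell list, so that 16-cell peaks were the nearest 1.84 times as often as their number alone gives, morula peaks 1.24 times, in vivo morula peaks 0.995 times and day 14 peaks 0.762 times. This ratio was 1.49 for 4-cell, 1.37 for in vivo blastocyst and 1.35 for MII peaks. For blastocyst, 2-cell and GV peaks it was 1.12, 0.926 and 0.787. Each of the lists added here was the nearest in at most 1.41% of cases. By list, the median gap from an 8-cell-only peak was 187190 bp to the 4-cell list, 8212 bp to the 16-cell list, 9654 bp to the morula list, 17507 bp to the in vivo morula list and 4029 bp to the day 14 list. For the GV, MII, 2-cell and both blastocyst lists it was between 365880 and 1608826 bp. A list with more peaks leaves less room for a gap, though the medians did not follow list length throughout: the morula list has 88858 peaks and a longer median gap than the 16-cell list with 75925. No order of stages was read from these medians or from the ratios above.

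**Figure D3:**
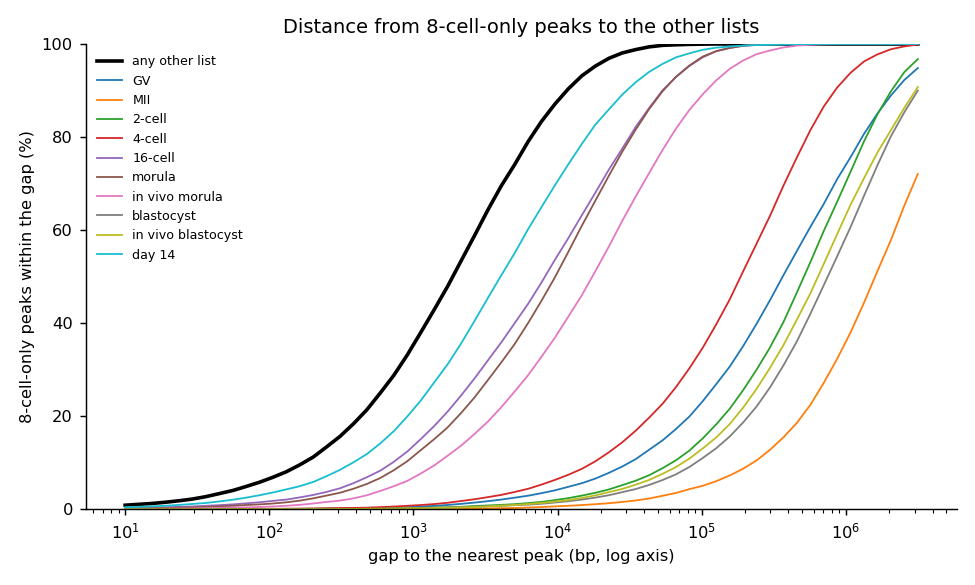
Each line gives the percentage of the 21881 8-cell-only peaks with a peak of the named list within the gap on the log axis, and the black line is for the nearest peak of any of the 10 other lists. The black line passes 35.3% at 1 kb and 87.8% at 10 kb, and the day 14, 16-cell and morula lines lie far to the left of the oocyte, 2-cell, 4-cell and blastocyst lines.

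Along the genome 8-cell-only peaks were spread more evenly than shared ones. The rule in part favours this, since it takes out more peaks where other lists are dense. Over the autosomes their density ran from 0.703 times the genome mean on chromosome 22 to 1.29 times on chromosome 3, against 0.689 times on chromosome 20 and 1.75 times on chromosome 18 for shared 8-cell peaks. The 10% of 1 Mb windows with the most peaks held 22.5% of 8-cell-only peaks and 28.3% of shared ones, each set being ranked by its own counts. With the day 14 list left out of the rule these were 22.4% and 28.0%. The range over single autosomes was not computed that way. The 8-cell-only share of a chromosome's 8-cell peaks was lowest on chromosomes 19 (27.4%, interval 25.3% to 29.6%), 25 (28.4%, interval 25.9% to 31.1%), 18 (29.5%, interval 27.6% to 31.4%) and 7 (30.5%, interval 28.9% to 32.3%). It was highest on chromosomes 12 (46.5%, interval 44.2% to 49.0%), 20 (44.5%, interval 41.7% to 47.3%) and 27 (42.7%, interval 39.5% to 45.9%). Peak widths alone would put every chromosome between 35.3% and 39.6%.

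On chromosomes 18, 19 and 25 together, which are rich in genes, 8-cell-only peaks were 1.05 times as dense as on the remaining chromosomes, and shared 8-cell peaks 1.60 times as dense. The ratio of these values was 0.658 (95% interval 0.618 to 0.701, Woolf's method). It depended on the day 14 list, whose peaks per Mb were highest on those same chromosomes. With the day 14 list left out of the rule it was 0.900 (interval 0.850 to 0.953), and with the shared peaks weighted to the widths of the 8-cell-only ones as well it was 0.971 (interval 0.916 to 1.03). Chromosome 19 then had 41.3%, chromosome 25 41.9% and chromosome 18 42.0% of its 8-cell peaks in the set, near the 44.1% of the whole list. Chromosome 7 stayed low at 37.8%, and chromosomes 12 and 20 stayed high at 52.2% and 50.8%. Across the 30 chromosomes the 8-cell-only share ran against the number of day 14 peaks per Mb (Pearson's r -0.80, Spearman's rho -0.79), and less so with the day 14 list left out of the rule (r -0.35, rho -0.47). The points share the same 8-cell list, and these correlations are descriptions.

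Chromosome 12, with an 8-cell-only share of 46.5%, had single-list shares of 35.3% in the 16-cell list and 38.8% in the morula list, whose genome-wide shares were both 31.2%. Chromosome 19, at 27.4%, had 20.4% and 13.4% in those lists. Chromosome 7, at 30.5%, had 28.0% in the 16-cell list and 31.6% in the morula list, the second of which was not below the share of its list. These shares are taken against largely the same other lists and are not independent. On chromosomes 18, 19 and 25 the density of single-list peaks relative to the remaining chromosomes was 1.05 times for 8-cell-only, 0.764 times for 16-cell-only, 0.449 times for morula-only, 0.435 times for in vivo morula-only and 2.32 times for day 14-only peaks.

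The X chromosome held 697 8-cell-only peaks, 3.19% of the set (interval 2.96% to 3.43%), against 3.30% of shared 8-cell peaks (interval 3.12% to 3.49%). The difference of -0.114 percentage points had an interval of -0.409 to 0.186. With the day 14 list left out of the rule the X share was 2.84% against 3.59%, a difference of -0.743 percentage points. In the 16-cell list X held 2.59% of single-list and 3.01% of shared peaks, in the morula list 5.94% and 3.50%, in the in vivo morula list 1.41% and 2.44%, and in the day 14 list 0.714% and 2.40%. 8-cell-only peaks on X stood farther from the nearest peak of any other list, with a median gap of 4698 bp against 1833 bp on autosomes. The difference varied by list. To the day 14 list the medians were 23396 bp on X and 3861.5 bp on autosomes, and to the 16-cell list 18595 and 8019.5 bp. To the morula list they were close, at 10485 and 9628.5 bp. Of the 88 8-cell-only peaks with no other list's peak within 50 kb, 43 lay on X. The day 14 list holds 25.6 peaks per Mb on X, and between 81.1 and 318 on autosomes. The 3 most isolated peaks were all on X, namely chrX:72650177-72650464 with a gap of 115351 bp, chrX:10269980-10270300 with a gap of 115050 bp and chrX:1820615-1820843 with a gap of 108713 bp. They were 229 to 321 bp wide.

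**Figure D4:**
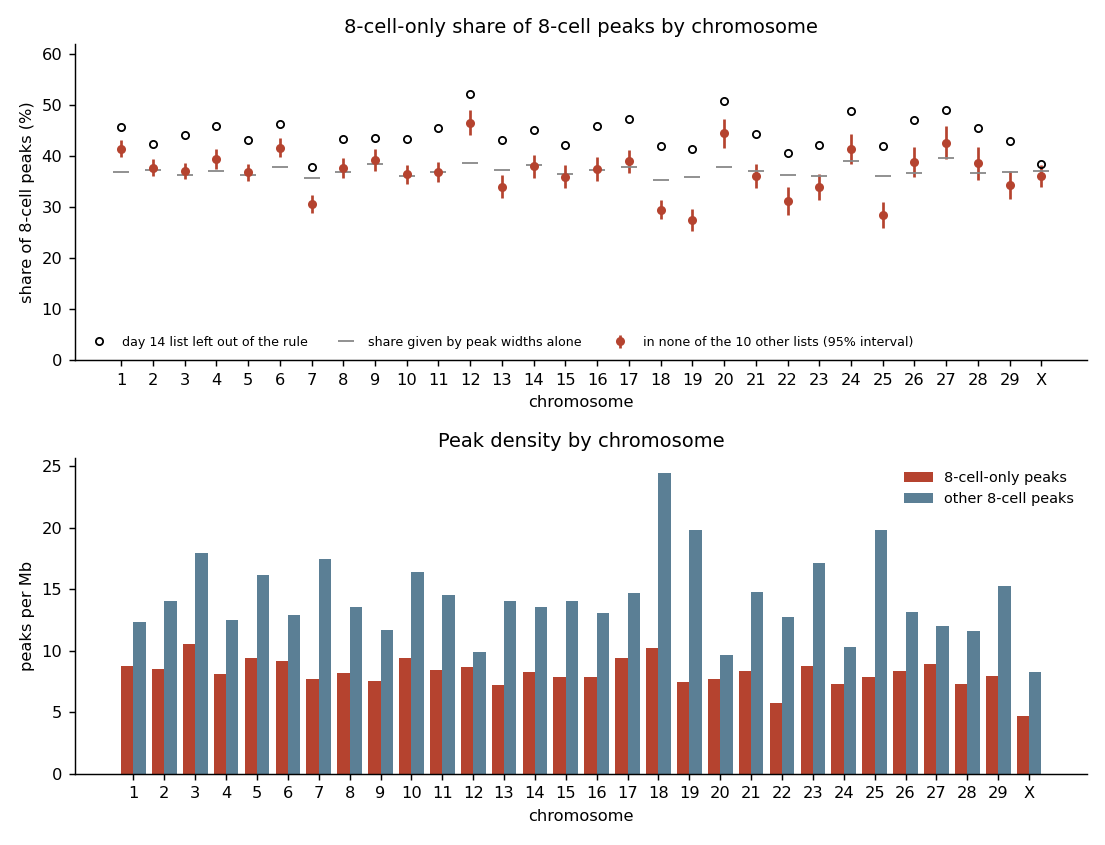
The upper panel gives for each chromosome the percentage of 8-cell peaks that were 8-cell-only (red, with 95% exact intervals), the same with the day 14 list left out of the rule (open circles) and the percentage that the widths of its peaks alone would give (grey bars). The lower panel gives the density of 8-cell-only (red) and shared (blue) 8-cell peaks per Mb. Under the rule that uses the day 14 list, the red bars vary less than the blue ones over the autosomes.

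The 8-cell-only share also differed along the autosomes. Cattle autosomes are acrocentric, with the centromere near the start of the sequence. When each autosome was cut into 10 equal parts, the share lay between 39.1% and 39.9% in parts 1 to 5, and was 36.4%, 36.6%, 35.6%, 31.7% and 33.3% in parts 6 to 10. Within 1 Mb of the last base it was 28.8% (interval 25.3% to 32.6%), against 38.4% (interval 34.6% to 42.3%) within 1 Mb of the first base. The rule takes out more peaks where other lists are dense. These shares were not recomputed without the day 14 list, so a link with position apart from the rule was not tested.

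On average the surroundings of 8-cell-only peaks held fewer peaks of every list. For the 10 other lists the rule itself favours this, since it keeps peaks that none of them meets. Within 50 kb of an 8-cell-only peak there were on average 4.29 other 8-cell peaks, against 5.26 around a shared 8-cell peak, and 4.90 when shared peaks were weighted to the same widths. For 16-cell peaks the means were 4.11 and 5.84, for morula peaks 4.04 and 6.01, for in vivo morula peaks 2.78 and 4.29 and for day 14 peaks 12.7 and 21.6, leaving out in each case peaks that overlapped the 8-cell peak itself. The weighting moved none of these ratios by more than 1.5 times. By the ratio of means, blastocyst peaks stood lowest at 0.259 times the number around shared peaks, 2-cell peaks at 0.381 times and 4-cell peaks at 0.626 times. Most peaks of both sets had no peak of these lists within 50 kb, and the medians were 0. For blastocyst peaks 94.2% of 8-cell-only and 93.2% of shared peaks had none. For 2-cell peaks these shares were 91.8% and 87.6%, and for 4-cell peaks 78.5% and 74.3%. The next 8-cell peak on either side was a median of 6016 bp away from an 8-cell-only peak and 3193 bp from a shared one.

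Windows of 1 Mb ranked by their day 14 peaks showed how differently the sets were distributed. The mean number of 8-cell-only peaks per window was 7.62, 8.13, 8.95, 8.65 and 7.52 over 5 equal groups of windows, from 0 to 30 up to 231 to 832 day 14 peaks. Shared 8-cell peaks numbered 6.42, 9.26, 13.5, 16.7 and 23.8 in the same groups. The 8-cell-only share was thus 54.3% in the first group of windows and 24.0% in the last, while the number of such peaks was nearly level. The windows are ranked by a list that the rule itself uses to take peaks out, which lowers the number in the windows richest in day 14 peaks. With the day 14 list left out of the rule the number was not level, at 7.87, 8.71, 10.1, 10.6 and 11.4 per window over the 5 groups, and the share was 56.05% in the first group and 36.5% in the last. Over the 2678 windows the number of 8-cell-only peaks followed that of shared 8-cell peaks with a Spearman's rho of 0.43, that of all 16-cell peaks with 0.32, that of all morula peaks with 0.23 and that of all day 14 peaks with -0.0049. The counts share the lists that define the set, and these values are descriptions.

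An 8-cell-only peak had another 8-cell-only peak as its neighbour more often than a shared peak had. The 8-cell peak that followed an 8-cell-only peak on the chromosome was itself 8-cell-only in 45.7% of cases (interval 45.0% to 46.3%), against 31.9% (interval 31.4% to 32.3%) after a shared peak. The share after a shared peak varied more with the gap between the neighbours than the share after an 8-cell-only peak. When the next peak started within 1 kb, it was 8-cell-only in 48.1% of cases after an 8-cell-only peak and in 19.5% after a shared peak. At 100 kb or more the shares were 48.5% and 41.5%. Part of the contrast at short gaps is built into the rule. A peak of another list that meets neighbouring 8-cell peaks makes all of them shared, and the 59186 8-cell peaks lie in 55821 regions. The difference was 13.8 percentage points over all neighbours, 12.2 points with the day 14 list left out and widths weighted, and 5.44 points under the stricter rule of a 50% overlap. Within 50 kb, 40.1% of the 8-cell peaks around an 8-cell-only peak were 8-cell-only, against 28.6% around a shared peak.

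Of the 8-cell-only peaks, 31.4% stood alone between shared 8-cell peaks and 44.3% belonged to runs of 3 or more consecutive 8-cell peaks that were all 8-cell-only. There were 43 runs of 10 or more, with 500 peaks. Longer runs lay where the day 14 list had fewer peaks, as the rule itself favours, the mean number of day 14 peaks within 50 kb being 18.3 for peaks that stood alone, 13.4 for pairs, 10.2 in runs of 3 or 4, 6.14 in runs of 5 to 9 and 4.04 in runs of 10 or more. Peaks of the remaining lists were not counted for these classes. Median widths in these classes lay between 366 and 381 bp.

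**Figure D5:**
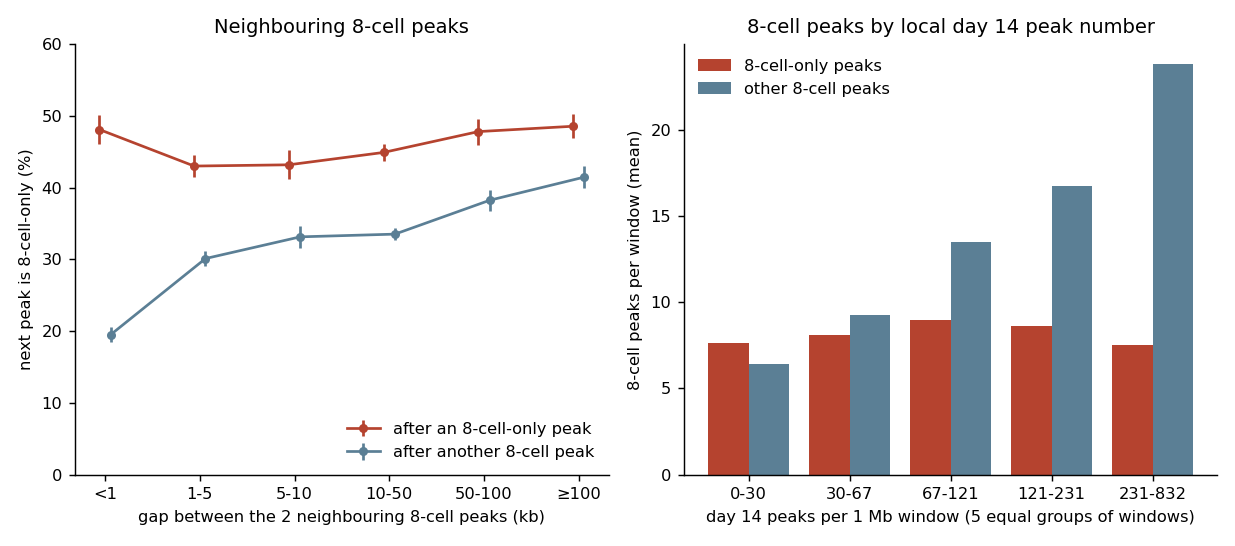
The left panel gives the percentage of cases in which the next 8-cell peak was 8-cell-only, after an 8-cell-only peak (red) and after a shared 8-cell peak (blue), by the gap between the neighbours, with 95% exact intervals. The colours are farthest apart below 1 kb at 48.1% and 19.5%, a contrast that is in part built into the rule. The right panel gives the mean number of 8-cell-only (red) and shared (blue) 8-cell peaks per 1 Mb window in 5 equal groups of windows ranked by their day 14 peaks, under the rule that uses the day 14 list, and the red bars stay between 7.52 and 8.95 while the blue ones reach 23.8.

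The longest run was chr7:42466281-43409983, with 22 consecutive 8-cell-only peaks of 250 to 1064 bp over 944 kb. In the same span the 16-cell list had 5 peaks, the morula list 10, the in vivo morula list none and the day 14 list 20. The GV list had 1, the 4-cell list 1 and the blastocyst list 2. By the definition of a run, none of these can meet an 8-cell peak of the run. The window from 42 to 43 Mb on that chromosome had the highest 8-cell-only share of the 1332 windows with at least 20 8-cell peaks, at 16 of 20 peaks (80.0%, interval 56.3% to 94.3%). It overlaps the run, and its interval does not allow for the choice of the highest window. This stretch stands against the chromosome as a whole, which had the lowest share apart from chromosomes 18, 19 and 25. The next longest run, chr26:5085987-6196334, held 18 8-cell-only peaks over 1110 kb, beside 8 16-cell, 4 morula, 7 in vivo morula and 24 day 14 peaks. Runs of 17 peaks were found at chr17:15257847-16656035, chr18:20983358-21595974 and chr29:5807701-6342027. The span on chromosome 18 held 5 16-cell peaks, 1 morula peak and no in vivo morula peak.

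The window with the most 8-cell-only peaks was on chromosome 29 from 5 to 6 Mb, with 37 of 82 8-cell peaks (45.1%, interval 34.1% to 56.5%), and it overlaps the run on that chromosome. The 4-cell list, with 5810 peaks in the genome, had 38 in this window. Next came chromosome 23 from 31 to 32 Mb with 31 of 126, chromosome 10 from 21 to 22 Mb with 30 of 101, chromosome 11 from 13 to 14 Mb with 28 of 43 (65.1%, interval 49.1% to 79.0%) and chromosome 18 from 49 to 50 Mb with 28 of 72. The windows on chromosomes 23 and 10 were rich in shared 8-cell peaks, and their shares of 24.6% and 29.7% were below that of the whole list, while the window on chromosome 11 was above it. High shares were also found on chromosome 12 from 86 to 87 Mb, with 23 of 30 (76.7%), and on chromosome 6 from 55 to 56 Mb, with 16 of 21 (76.2%), where the day 14 list had 9 peaks. Over the 1332 windows the share had a median of 35.0%, and 77 windows exceeded 60%. At the other end, 4 windows had no 8-cell-only peak. They were chosen here after their values were seen, the fullest being on chromosome 1 from 145 to 146 Mb with 58 8-cell peaks, all shared. That window also held 648 day 14, 120 blastocyst, 80 16-cell and 76 morula peaks, from lists by which the rule takes peaks out. The exact interval reaches 6.16%, but it covers counting error only and does not allow for the choice of an extreme window. The same holds for the intervals of the other named windows.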

How the data were processed

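Accessible chromatin was measured by ATAC-seq in 56 libraries of 11 groups. The authors combined the peaks of a stage's libraries, per the series description, and deposited 1 list per group, with chromosome, start and end in 3 columns and no other value. The build was UMD3.1, and the tools named are MACS2, HOMER, bedtools and Bowtie2 2.3, per the submitters' processing notes. Not given in the sources used here are the calling threshold, the merging rule and the depth per library.

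Lists were read as BED files, with starts counted from 0 in the file and from 1 in the text. This convention is not stated, and under the other one the 13 touching peaks would count as shared. Chromosome lengths were taken as the last position in any list. The gene table at hand is of another assembly (ARS-UCD2.0) and no genome of UMD3.1 was used, so genes, promoters, sequences and motifs were not analysed here.

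The regions and the quantities were chosen with earlier results of these data known. Named regions were the 5 widest 8-cell-only peaks, the 3 farthest from other lists, the 3 on each side of the rule, the longest runs, and the 1 Mb windows with the most peaks and the highest shares; runs tied at 17 were all named. Windows took a peak by its centre. Width weighting gave shared 8-cell peaks the width deciles of the 8-cell-only ones. The interval of a difference combined the 2 exact intervals in the way that Newcombe's method combines Wilson intervals. That of a density ratio was Woolf's. Counts were tested on simulated lists, where 2000 of 2000 planted single-list peaks were recovered, and on the real lists the 21881 and 482097 regions matched the output of bedtools 2.31.1. Values came from numpy 2.4.6, scipy 1.17.1 and pandas 2.3.3 under Python 3.11.15, and figures from matplotlib 3.10.9.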

Additional observations from a re-analysis of the deposited data

How the results depend on the processing

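No paired analysis was possible because each group has 1 merged list, and for the same reason no library could be left out. With 50% of both peaks shared, the number of 8-cell-only peaks was 35588 (60.1% of the list), the ratio of median widths (8-cell-only over shared) 0.604, the X difference -0.622 percentage points, the density ratio on chromosomes 18, 19 and 25 0.745, the share within 1 kb of another list 60.2%, the neighbour difference 5.44 points and the difference in the share held by the fullest 10% of windows -7.50 points. With other lists widened by 250 bp these were 32.0% of the list, 0.698, 0.211 (the X difference reversed), 0.604, 25.3%, 16.6 and -5.01. Among 8-cell peaks of at least 329 bp there were 14183 (31.4%), with a width ratio of 0.680, a neighbour difference of 12.9 and a window difference of -4.26. With peaks closer than 500 bp joined, the width ratio was 0.614, the share within 1 kb 32.3% and the neighbour difference 11.5. Without the day 14 list the share was 44.1%, the width ratio 0.626, the X difference -0.743, the density ratio 0.900, the share within 1 kb 23.5% and the neighbour difference 11.5, and with widths weighted too, an alternative chosen after seeing the data, -0.921, 0.971, 12.2 and -4.81 for X, density, neighbours and windows. Without the in vivo lists the share was 38.0% and that within 1 kb 34.5%. Within 5 kb it was 73.9%. The other 22 of 58 values stayed within the interval of the main one, or within 1.5 times for the number of peaks. The weighting has no shared counterpart for the gap to other lists and was not run there. Depth and peak heights are unknown.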
